A study of Mus musculus with 24 samples.

Results

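The genes described here are Ccl2, Ccl7 and Ccl12, which encode monocyte chemoattractant proteins, and Ccr2, which encodes their shared receptor. They were taken by gene symbol, and each symbol matched 1 of the 56691 genes in both expression tables, so that 4 genes are followed. Expression had been measured by RNA-seq in RAW264.7 cells, a mouse macrophage-like leukemia line, and in bone marrow-derived macrophages (BMDMs), the primary cells grown from mouse marrow. Each cell type was either wild type (WT) or labelled as Olfml3 knockout, and received either PBS or 100 ng/mL of lipopolysaccharide (LPS) for 4 h. LPS, from the wall of Gram-negative bacteria, is the ligand of Toll-like receptor 4. This gave 8 groups of 3 libraries, 24 in all. The RAW264.7 knockout was a single-cell CRISPR clone, so the clone and the genotype cannot be told apart. BMDMs came from 8-week-old male C57BL/6 mice, WT or carrying a germline Olfml3 deletion made with CRISPR, and were differentiated for 6 days with 20% of L929 cell supernatant. The labels do not say whether the 3 libraries of a group were separate animals or cultures, and p-values therefore measure only the spread between libraries.

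Monocyte chemoattractants are small CC chemokines that macrophages, stromal and endothelial cells secrete when they sense bacterial products or cytokines. They bind CCR2, a Gi-coupled receptor carried by classical monocytes, and draw these cells out of the marrow and into inflamed tissue. Ccl2 (MCP-1) and Ccl7 (MCP-3) are the main CCR2 ligands of the mouse, and Ccl12 (MCP-5) is a further ligand that is found in the mouse and not in humans. Monocytes lose Ccr2 as they mature into macrophages, and Toll-like receptor ligands are known to lower Ccr2 mRNA.

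The libraries held 11638273 to 16478616 counts in RAW264.7 cells and 17121240 to 22873094 in BMDMs. In BMDMs Olfml3 followed the labels, with 0.53 to 0.65 FPKM (fragments per kilobase of exon, scaled to library size) in WT with PBS, 0.24 to 0.25 in WT with LPS and at most 0.03 in the knockout. In RAW264.7 cells its level was higher, not lower, in the libraries labelled knockout. WT libraries held 0.13 to 0.29 FPKM, while the libraries labelled knockout held 0.65 to 1.19 with PBS and 18.3 to 18.9 with LPS. They are therefore called libraries labelled knockout below. Counts over a whole gene do not show whether its transcript carries an edit, so they cannot settle the genotype of these libraries. The study reports Sanger sequencing of its clones. The genotype tag also disagreed with the title in 12 of the 24 samples, and groups were taken from titles. Among the PBS libraries labelled knockout in RAW264.7 cells, replicate 1 stood apart, with a chi-square per degree of freedom of 88.9 and 90.04 against its 2 companions and of 2.33 between those. Some results of the 4 genes that rest on this group are also given without it, and others only as a range over libraries left out. In BMDMs the WT libraries with LPS differed more among themselves (5.14 to 11.4) than those of the other 3 groups (1.80 to 2.82). Their replicate 1 was the farthest from the others and held the highest levels of the 3 ligands, and genotype effects with LPS are given without it where they are described. Of 8 macrophage markers, 8 were detected in BMDMs and 7 in RAW264.7 cells, where Mertk was at 0. Their summed level in RAW264.7 cells was 3344 to 4013 FPKM in WT libraries and 1145 to 1420 FPKM in the libraries labelled knockout. In BMDMs it was 14853 to 15277 FPKM in WT and 16620 to 17811 FPKM in the knockout with PBS, and 12369 to 12637 FPKM in WT and 12875 to 13153 FPKM in the knockout with LPS, so that the knockout lay above WT without overlap at both treatments. The median log2 difference of the 8 markers between BMDM genotypes was -0.13 with PBS and -0.12 with LPS, so the sum does not stand for each marker. The defining monocyte markers Ly6c2 and Chil3 were at 0 in every RAW264.7 library. In bulk RNA, fewer cells of a type and less RNA per cell cannot be told apart.

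The 3 ligand genes lie near each other on the plus strand of chromosome 11, and Ccr2 lies on the plus strand of chromosome 9. The tables give positions without naming their genome build. By these, Ccl2 (ENSMUSG00000035385) is listed at chr11:81926397-81928279, Ccl7 (ENSMUSG00000035373) at chr11:81936538-81938351, Ccl12 (ENSMUSG00000035352) at chr11:81992671-81994226 and Ccr2 (ENSMUSG00000049103) at chr9:123901987-123913594. In the GRCm38 annotation each ligand has 3 exons. The coding part is 447 bases long in Ccl2, 294 in Ccl7 and 315 in Ccl12. Exon 3 of Ccl2, at chr11:82036926-82037453, holds both ends of an RT-qPCR amplicon of this gene. These primers are printed because they show where that assay reads Ccl2.

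Ccl2 forward primer: ttaaaaacctggatcggaaccaa
Ccl2 reverse primer: gcattagcttcagatttacgggt

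The forward primer lies at chr11:82036991-82037013 and the reverse primer at chr11:82037089-82037111 (GRCm38), both within the coding sequence and 121 bases apart from end to end. They differ from the closest stretch of Ccl7 or Ccl12 at 9 bases or more. Reads of the 3 ligands can be told apart as well. No stretch of 50 bases is shared between any pair of them, and the identity of the coding sequences was 51.6% for Ccl2 and Ccl7, 52.4% for Ccl2 and Ccl12 and 64.9% for Ccl7 and Ccl12. The longest run that Ccl2 shares with Ccl12 has 17 bases and lies in exon 3 at chr11:82036952-82036968. It belongs to a stretch shared with Ccl11, the eotaxin gene between Ccl7 and Ccl12, which is the most conserved piece of the 3 sequences and is shown for that reason.

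Ccl2 and Ccl12: tctgtgctgaccccaag
Ccl2 and Ccl11: tctgtgctgaccccaagaag
Ccl12 and Ccl11: gagatctgtgctgaccccaag

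Ccr2 belongs to a receptor family with close paralogs, and counts of Ccr2 are uncertain to the extent that reads from conserved coding stretches were shared between members.

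Of the promoter sequences in the RefSeq annotation (GRCm38.p6), that of Ccl12 ends where its exon 1 begins. Ccl2 and Ccl7 had no entry, and the window listed for Ccr2 lies almost wholly inside exon 1 of its coding transcript and is not shown. The 250 bases before the Ccl12 start, at chr11:82101595-82101844 on the plus strand, are printed because Ccl12 had the largest response to LPS of the 4 genes in BMDMs. Capitals mark the matches to the motifs searched.

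Ccl12: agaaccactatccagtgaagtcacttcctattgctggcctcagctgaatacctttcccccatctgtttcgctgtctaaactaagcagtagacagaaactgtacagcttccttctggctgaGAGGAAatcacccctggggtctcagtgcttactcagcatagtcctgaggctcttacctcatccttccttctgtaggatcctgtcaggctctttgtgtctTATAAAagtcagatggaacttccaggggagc

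The 8 motifs searched on both strands were the TATA box TATAAA, the NF-kB motif of 10 letters, the AP-1 motif TGANTCA, the GC box GGGCGG, the PU.1 core GAGGAA, the C/EBP motif TTGCNNAA, the STAT motif TTCNNNGAA and the core of the interferon-stimulated response element. Ccl12 held TATAAA from 31 to 26 bases before the start and GAGGAA from 130 to 125 bases before it. Over 32851 promoters of the same length, 12.4% held TATAAA and 23.3% held GAGGAA. The GC content of the Ccl12 window was 48.4%.

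LPS raised all 3 ligands in WT cells of both types, while Ccr2 rose in RAW264.7 cells and fell in BMDMs. The libraries labelled knockout held far less of the ligands in RAW264.7 cells, and the knockout held more Ccl2 in BMDMs. Genes were compared with limma on log2(FPKM + 0.1), with Benjamini-Hochberg adjustment over all genes tested, and a gene was called when its adjusted p was under 0.05 and its fold change at least 1.5. In RAW264.7 cells 4 of the 4 genes were called for LPS against PBS in WT, where 18.3% of 26740 genes were called. Only Ccl2 was called for LPS against PBS in the libraries labelled knockout, where 22.1% of genes were called. Between genotypes, 1 of 4 was called with PBS (8.55% of genes) and 4 of 4 with LPS (17.3%). For the difference between those 2 effects, 2 of 4 were called (1.95%). Without replicate 1 of the libraries labelled knockout with PBS, 1 of 4 was called with PBS (20.8%, or 5523 genes in place of 2287) and 3 of 4 for the difference (3.41%, or 904 genes in place of 521). In BMDMs all 4 genes were called for LPS in WT and in the knockout, where 40.4% and 38.9% of 26973 genes were called. The knockout was called for 1 of 4 with PBS (1.82% of genes), 1 of 4 with LPS (4.76%) and 1 of 4 in the difference between them (2.93%). The last count was 2 of 4 (2.82%), Ccl7 and Ccl12, without replicate 1 of WT with LPS.

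**Figure D1:**
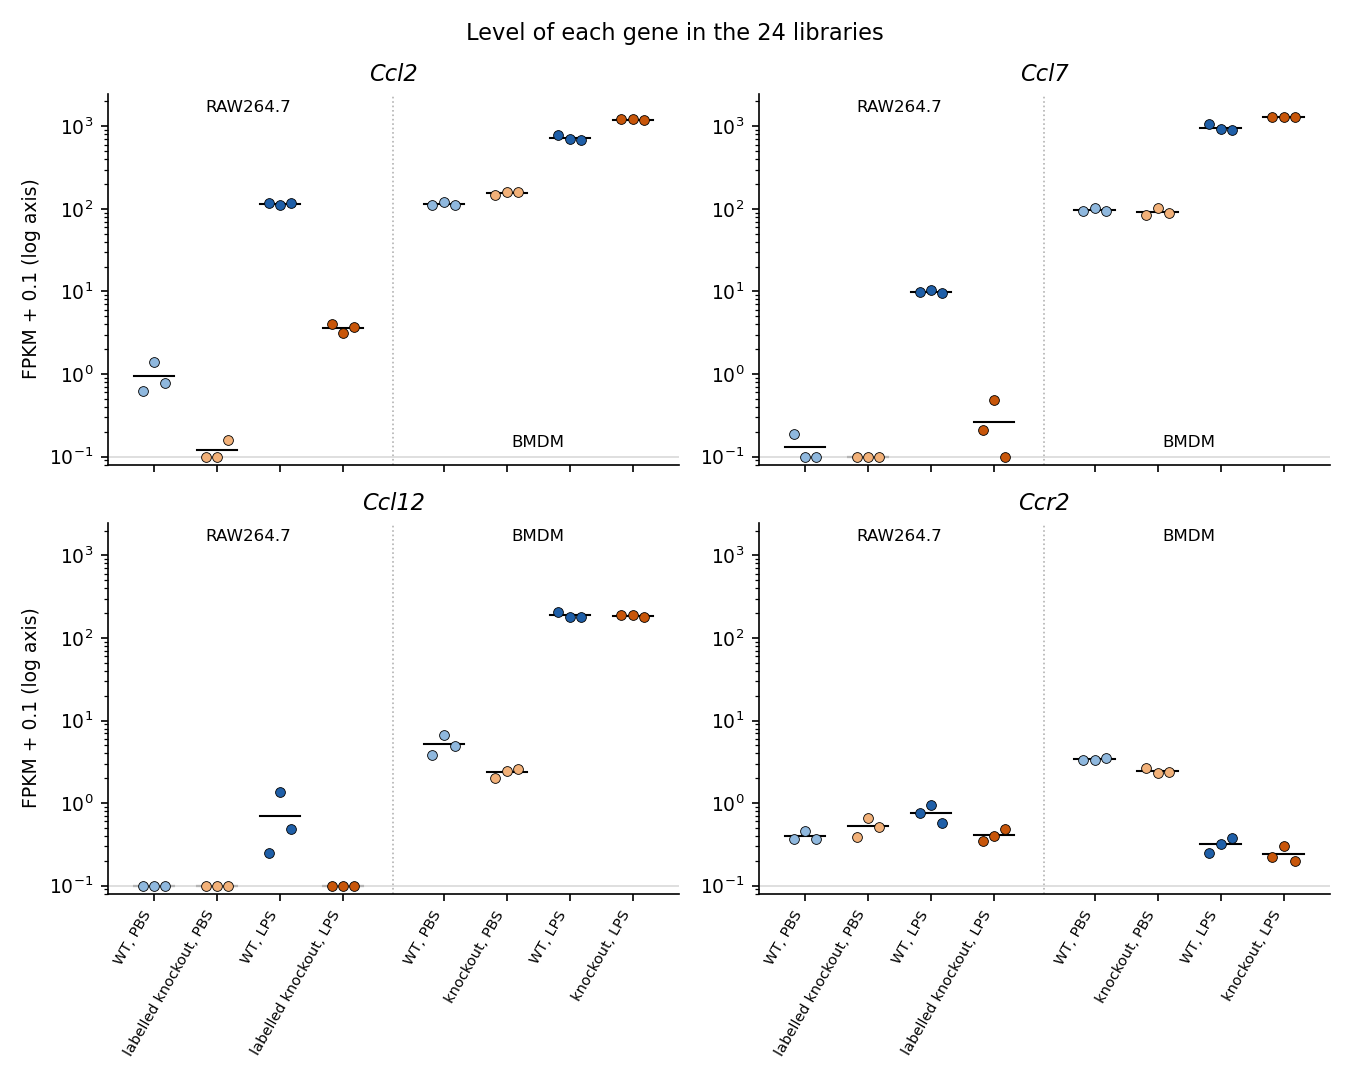
FPKM + 0.1 of Ccl2, Ccl7, Ccl12 and Ccr2 on a log axis in the 24 libraries, 3 points per group with the group mean as a line. The ligands span from 0 to 1310 FPKM, while Ccr2 stayed between 0.10 and 3.40 FPKM.

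In WT RAW264.7 cells Ccl2 was close to silent without LPS and reached over 100 FPKM with it. The PBS libraries of WT held 0.53, 1.31 and 0.67 FPKM, from 8, 24 and 10 counts. The libraries labelled knockout with PBS held 0, 0 and 0.06 FPKM, from 1 count in all. The 2 groups did not overlap, and limma gave a log2 fold change of -2.91 ± 0.29 (SE, n = 3 per group, adjusted p = 0.000181). The ratio of the pooled counts was 46.1 with an exact 95% counting interval from 7.84 to 1864. Without replicate 1 of the libraries labelled knockout the log2 fold change was -2.80.

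With LPS, Ccl2 stood at 117, 113 and 118 FPKM in WT, and at 3.93, 3.07 and 3.59 FPKM in the libraries labelled knockout. All 3 WT libraries lay above all 3 labelled knockout, and each LPS group lay above both PBS groups. The log2 fold change was -5.01 ± 0.29 (limma, adjusted p = 5.03e-06), and the pooled counts gave a ratio of 33.0 (28.04 to 39.1). LPS itself raised Ccl2 by 7.04 ± 0.29 on the log2 scale in WT (adjusted p = 9.19e-08) and by 4.95 ± 0.29 in the libraries labelled knockout (adjusted p = 7.64e-07, 4.84 without replicate 1). The difference between these was -2.09 ± 0.40 (adjusted p = 0.0308), and without replicate 1 of the labelled knockout PBS group it was -2.21, but its sign followed the value added before taking logs, since the labelled knockout PBS group held 1 count of Ccl2. With 0.01 in place of 0.1 it was 0.32, and edgeR on the counts gave -0.04. The pooled LPS to PBS ratios were 134 (98.9 to 186) in WT and 187 (33.0 to 7434) in the libraries labelled knockout, so that a difference in relative induction was not detectable at this depth.

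In BMDMs Ccl2 was already abundant without LPS. WT libraries with PBS held 110, 121 and 111 FPKM, and knockout libraries 146, 158 and 159 FPKM. With LPS the WT libraries held 777, 709 and 690 FPKM and the knockout libraries 1226, 1211 and 1189 FPKM. The 4 groups did not overlap, and their order ran from knockout with LPS to WT with LPS, knockout with PBS and WT with PBS. In the knockout with LPS, Ccl2 ranked 29th of 21638 genes by mean FPKM, and in WT with LPS 55th of 21582.

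The knockout effect on Ccl2 in BMDMs was 0.44 ± 0.06 on the log2 scale with PBS (adjusted p = 0.0037, limma), a fold of 1.36 that lay under the 1.5 required for a call. With LPS it was 0.74 ± 0.06 (adjusted p = 7.49e-05), a fold of 1.67. The difference between both was 0.30 ± 0.09 (adjusted p = 0.0893), with a 95% interval from 0.10 to 0.50. LPS raised Ccl2 by 2.67 ± 0.06 in WT and by 2.97 ± 0.06 in the knockout (adjusted p = 3.58e-10 and 1.85e-10). The call with LPS ended under median-ratio scaling and with DESeq2, where the log2 fold change was 0.58 and the fold fell just short of 1.5. Expressed genes as a whole lay 0.14 higher in the knockout with LPS (median log2 fold change of 10555 genes), which leaves 0.60 for Ccl2 relative to them. Without replicate 1 of WT with LPS the effect with LPS was 0.79, and the difference between both was 0.35 with an adjusted p of 0.0419, under the fold required. The summed macrophage markers were also higher in the knockout at both treatments, while their median log2 difference was -0.13 with PBS and -0.12 with LPS. Of the 8 markers limma called Fcgr1 alone, lower in the knockout at both treatments, where 1.82% (PBS) and 4.76% (LPS) of all genes were called. edgeR and DESeq2 each called 1 marker with PBS and 2 with LPS. An unadjusted limma p under 0.05 was found for 5 of the 8 with PBS and 6 with LPS. The part of these markers in the values of Ccl2 was not tested.

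Ccl7, whose product attracts monocytes and, through other receptors, eosinophils, followed Ccl2 in RAW264.7 cells at a lower level. It was at 0.09, 0 and 0 FPKM in WT with PBS and at 0 in every library labelled knockout with PBS. With LPS it reached 9.75, 10.3 and 9.52 FPKM in WT, and 0.11, 0.38 and 0 FPKM in the libraries labelled knockout. The WT libraries with LPS stood above all others, while the remaining 3 groups overlapped. The difference between genotypes with LPS was -5.52 ± 0.47 (limma, adjusted p = 5.96e-05), and the counts were 331 against 5, a ratio of 58.5 (24.8 to 181). LPS raised Ccl7 by 6.33 ± 0.47 in WT (adjusted p = 6.38e-06). In the libraries labelled knockout the value was 1.11 ± 0.47 (adjusted p = 0.122), from 5 counts against 0, and edgeR and DESeq2 called it (adjusted p = 0.0331 and 0.0165). The difference between these responses was -5.22 ± 0.67 (adjusted p = 0.00412, and 0.00694 without replicate 1 of the labelled knockout PBS group), and it was not called by edgeR (adjusted p = 0.971), by DESeq2 (0.118) or with 0.01 added (0.267).

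In BMDMs Ccl7 stood at 95.1, 104 and 95.1 FPKM in WT and 84.6, 103 and 88.5 FPKM in the knockout with PBS, and the 2 groups overlapped. With LPS it stood at 1062, 937 and 899 FPKM in WT and at 1310, 1306 and 1283 FPKM in the knockout, with no overlap. The knockout effect was -0.10 ± 0.09 with PBS (adjusted p = 0.674, 95% interval -0.29 to 0.10). With LPS it was 0.43 ± 0.09 (limma, adjusted p = 0.00671), a fold of 1.35 that was not called. The difference between the effects, 0.53 ± 0.12, had an adjusted p of 0.0324 and a fold of 1.44, likewise under the size required. Without replicate 1 of WT with LPS the effect with LPS was 0.50, and the difference, 0.60, was called (adjusted p = 0.0191). LPS raised Ccl7 by 3.30 ± 0.09 in WT and by 3.83 ± 0.09 in the knockout (adjusted p = 6.22e-10 and 2.59e-10). With LPS it ranked 28th by mean FPKM in the knockout and 42nd in WT.

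Ccl12 was the rarest of the ligands in RAW264.7 cells. It was at 0 in both PBS groups and in all 3 libraries labelled knockout with LPS, and at 0.15, 1.27 and 0.39 FPKM in WT with LPS, from 1, 10 and 3 counts. The WT libraries with LPS were the only ones with a count. limma called both the rise in WT, 2.46 ± 0.47 (adjusted p = 0.0032), and the difference between genotypes with LPS, -2.46 ± 0.47 (adjusted p = 0.00559). With 14 counts against 0, and taking 3 counts over a group as the floor, Ccl12 was at least 4.74-fold higher with LPS than with PBS in WT and at least 4.12-fold higher in WT than in the libraries labelled knockout. These limits leave out the counting error of the 14 counts.

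In BMDMs Ccl12 showed the largest response to LPS of the 4 genes, and the response started from a lower level in the knockout. With PBS it stood at 3.77, 6.55 and 4.84 FPKM in WT and at 1.92, 2.36 and 2.52 FPKM in the knockout. Each WT library lay above each knockout library, with a log2 difference of -1.10 ± 0.18 (limma, adjusted p = 0.00728) and a ratio of pooled counts of 2.24 (1.70 to 2.97). With LPS it stood at 207, 179.2 and 177 FPKM in WT and at 189, 187 and 178 FPKM in the knockout, which overlapped, and the difference was -0.02 ± 0.18 (adjusted p = 1, 95% interval -0.42 to 0.38) and 0.04996 without replicate 1 of WT with LPS. LPS raised Ccl12 by 5.22 ± 0.18 in WT and by 6.29 ± 0.18 in the knockout (adjusted p = 3.71e-09 and 1.17e-09), which is 37.2-fold and 78.5-fold. The responses differed by 1.07 ± 0.25 (adjusted p = 0.0344), a call that was lost when any library but WT replicates 1 and 2 with PBS and WT replicate 1 with LPS was left out, with values from 0.87 to 1.26 over the 12 libraries. The difference with PBS was not called when the 2 groups were fitted alone (adjusted p = 0.0931).

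Levels of the ligands were compared with each other per length within each BMDM library. In WT with PBS, Ccl2 made up 52.5% ± 0.184, Ccl7 45.2% ± 0.331 and Ccl12 2.31% ± 0.515 of their summed FPKM (SD, n = 3). In the knockout with PBS the shares were 62.2% ± 1.80, 36.9% ± 1.83 and 0.910% ± 0.0928. With LPS they were 38.6% ± 0.576, 51.4% ± 0.511 and 9.98% ± 0.147 in WT, and 44.9% ± 0.105, 48.3% ± 0.181 and 6.85% ± 0.131 in the knockout. Ccl2 thus took a larger share of the ligand mRNA in the knockout under both treatments, and its share was smaller with LPS in both genotypes.

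The FPKM of Ccl7 over that of Ccl2 was 0.864, 0.857 and 0.860 in WT with PBS, and 0.578, 0.648 and 0.558 in the knockout with PBS. With LPS it was 1.37, 1.32 and 1.30 in WT and 1.07, 1.08 and 1.08 in the knockout. The genotypes did not overlap under either treatment (exact permutation test, two-sided, p = 0.1 for each, the smallest that 3 libraries against 3 allow). The ratio of Ccl12 to Ccl2 was lower in the knockout as well, at 0.0131 to 0.0159 against 0.0342 to 0.0542 with PBS and 0.149 to 0.155 against 0.253 to 0.266 with LPS (exact permutation test, p = 0.1 for each). A ratio within a library does not move with its scaling. It does move with the length used: the tables give Ccl2 an exonic length of 1138 bases, which is 1.40 times the 813 bases of its coding transcript, because a second, noncoding transcript is included. With coding transcripts, Ccl7 over Ccl2 with LPS was 0.9505 ± 0.0236 in WT and 0.768 ± 0.00433 in the knockout (SD, n = 3), and Ccl2 then lay above Ccl7 in all 4 groups.

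**Figure D2:**
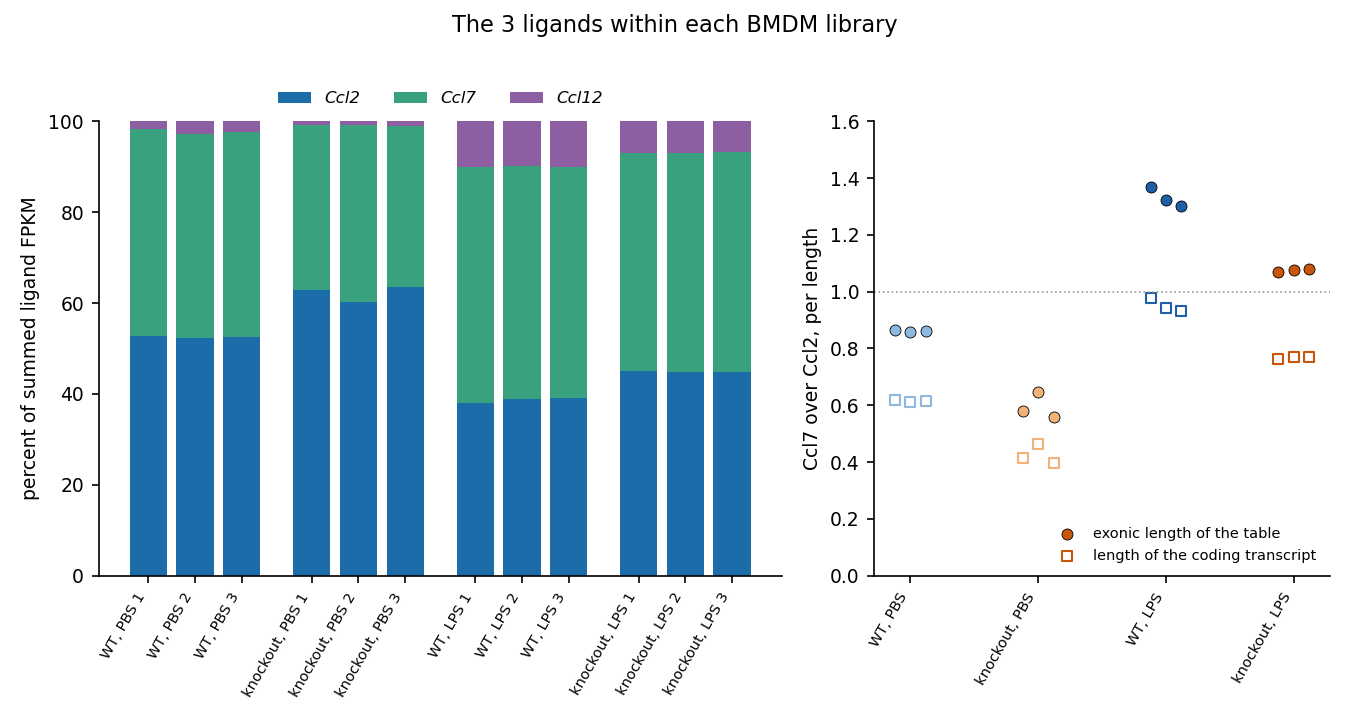
Left, percent of the summed FPKM of the 3 ligands in each of the 12 BMDM libraries. Right, Ccl7 over Ccl2 per length in the same libraries, with the exonic length of the table (circles) and that of the coding transcript (squares), where the knockout libraries lie below WT at both treatments and by both lengths.

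In RAW264.7 cells the mixture was almost entirely Ccl2. In WT with LPS, Ccl2 made up 91.7% ± 0.887, Ccl7 7.80% ± 0.436 and Ccl12 0.482% ± 0.478 of the summed FPKM (SD, n = 3). Ccl7 over Ccl2 was 0.0850 ± 0.00558 there, beside 1.33 ± 0.0330 in BMDMs of the same genotype and treatment. The tables of the 2 cell types were normalized separately, and values are set side by side without a test.

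Ccr2 ran against its ligands in BMDMs. With PBS it stood at 3.25, 3.22 and 3.40 FPKM in WT and at 2.58, 2.24 and 2.28 FPKM in the knockout. With LPS it stood at 0.15, 0.22 and 0.28 FPKM in WT and at 0.12, 0.20 and 0.10 FPKM in the knockout. Each PBS group lay above both LPS groups, WT lay above the knockout with PBS, and the LPS groups overlapped. With LPS, Ccr2 fell by 3.44 ± 0.17 on the log2 scale in WT and fell by 3.38 ± 0.17 in the knockout (limma, adjusted p = 5.81e-08 and 7.71e-08). The pooled counts fell 15.2-fold (12.4 to 18.8) and 16.2-fold (12.5 to 21.3). The difference between the responses was 0.06 ± 0.24 (adjusted p = 0.927, 95% interval -0.49 to 0.61).

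The knockout effect on Ccr2 in BMDMs was -0.46 ± 0.17 without LPS (limma, adjusted p = 0.236, 95% interval -0.85 to -0.07). It was -0.40 ± 0.17 with LPS (adjusted p = 0.167), and neither was called. edgeR and DESeq2 called the second, with -0.71 and -0.73 (adjusted p = 0.0336 and 0.0179), from 98 counts against 61. With replicate 1 of WT with LPS left out limma gave -0.56 (adjusted p = 0.0483), which lay under the fold required. For the effect without LPS, 1470 pooled counts in WT stood against 992, a ratio of 1.39 (1.28 to 1.51), and no alternative called it.

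In RAW264.7 cells Ccr2 stayed under 1 FPKM in every library. The exonic length used for Ccr2, 6760 bases, is 2.98 times the 2265 bases of its coding transcript. Its FPKM in both cell types is therefore lower than a value per coding transcript would be. It stood at 0.27, 0.36 and 0.27 FPKM in WT with PBS, 0.29, 0.56 and 0.42 in the libraries labelled knockout with PBS, 0.66, 0.84 and 0.47 in WT with LPS, and 0.25, 0.30 and 0.39 in the libraries labelled knockout with LPS. WT with LPS lay above WT with PBS and above the libraries labelled knockout with LPS, while groups next to each other in the order of means overlapped. LPS raised Ccr2 by 0.90 ± 0.24 in WT (adjusted p = 0.0191), where 187 counts stood against 87. The value in the libraries labelled knockout was -0.32 ± 0.24 (adjusted p = 0.374, and -0.52 without replicate 1 with PBS). Between genotypes the difference was 0.36 ± 0.24 in PBS libraries (adjusted p = 0.366, and 0.56 without that replicate). It was -0.86 ± 0.24 with LPS (adjusted p = 0.0267, limma). The difference between the 2 genotype effects was -1.22 ± 0.33 (adjusted p = 0.134), and without replicate 1 of the libraries labelled knockout with PBS it was -1.42 (adjusted p = 0.0402) and called. Both calls were lost with a pseudocount of 1. The rise in WT was also lost without WT replicate 1 or 2 with LPS (0.88 and 0.73) or WT replicate 1 or 3 with PBS (0.85 each), and the genotype difference without replicate 1 or 2 of WT with LPS (-0.84 and -0.69) or of the libraries labelled knockout with LPS (-0.74 and -0.84).

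**Figure D3:**
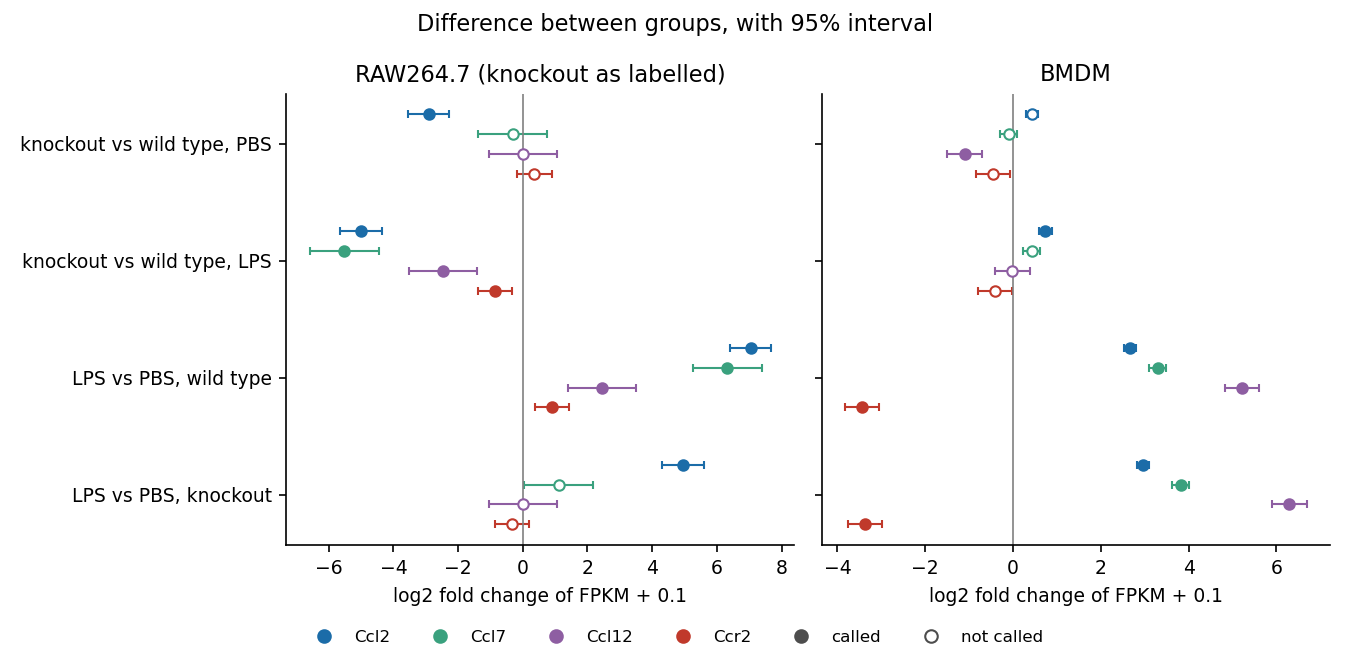
log2 fold changes of FPKM + 0.1 with 95% intervals from limma for the 4 genes in 4 comparisons, RAW264.7 cells at left and BMDMs at right, filled where called. In BMDMs the ligands lie between 2.67 and 6.29 and Ccr2 at -3.44 and -3.38 for LPS against PBS.

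Most expressed genes of BMDMs were lower with LPS on the FPKM scale, with a median log2 change of -0.73 in WT and -0.62 in the knockout. Against that median the ligands were 10.5-fold (Ccl2), 16.3-fold (Ccl7) and 61.7-fold (Ccl12) higher in WT, and 12.02-fold, 21.8-fold and 120-fold higher in the knockout. Ccr2 was at 0.153 and 0.147 of its PBS level on the same scale. In RAW264.7 cells the median changes were -0.21 and -0.23. Under median-ratio scaling, higher calls among all genes with LPS made up 47.9% in place of 19.6% in WT BMDMs and 46.8% in place of 20.6% in the knockout. They made up 49.7% in place of 31.7% in WT RAW264.7 cells and 51.7% in place of 33.8% in the libraries labelled knockout. For the knockout against WT with LPS in BMDMs the share was 43.4% in place of 67.9%, and for the difference between effects 46.8% in place of 65.1%. Under TPM scaling the share of higher calls between genotypes in RAW264.7 cells was 72.5% in place of 56.0% with PBS and 75.8% in place of 56.1% with LPS. Each called difference in Ccl2, Ccl7, Ccl12 and Ccr2 kept its direction under TPM, median-ratio and quantile scaling.

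The genes around Ccl2 were read from the positions in the tables. Ccl8 (MCP-2), 79.6 kb downstream, responded to LPS in BMDMs as Ccl12 did. Its FPKM was 0.563 ± 0.254 in WT with PBS, 0.227 ± 0.0896 in the knockout with PBS, 54.5 ± 8.19 in WT with LPS and 30.4 ± 1.43 in the knockout with LPS (SD, n = 3). The rise was 6.44 ± 0.30 in WT and 6.58 ± 0.30 in the knockout on the log2 scale (adjusted p = 3.30e-08 and 3.39e-08, limma). With LPS the WT libraries held 48.1 to 63.8 FPKM and the knockout libraries 29.3 to 32.0 FPKM, without overlap, but the difference of -0.83 had an adjusted p of 0.0935 with limma and was not called. It was called by edgeR (-0.99, adjusted p = 4.76e-10) and DESeq2 (adjusted p = 5.64e-15), and by limma with a minimum of 1 FPKM (adjusted p = 0.0376), median-ratio scaling (0.0466), a pseudocount of 1 (0.00161), the 2 groups alone (0.0181) or WT replicate 3 with PBS left out (0.0138). Ccl11, between Ccl7 and Ccl12, stayed at a mean of at most 0.11 FPKM. Within one stretch of the chromosome the mean with LPS was thus higher in the knockout for Ccl2 and Ccl7, near equal for Ccl12 and lower for Ccl8. Of these limma called Ccl2, while DESeq2 called Ccl8 and not Ccl2. The DESeq2 value for Ccl2, 0.58 (adjusted p = 1.6e-33), lay just under the fold required. Ccl24, an eotaxin gene outside this cluster, held 4.04 FPKM in WT and 6.73 FPKM in the knockout with LPS (0.72 ± 0.16, adjusted p = 0.0108), a call lost under median-ratio and quantile scaling and with DESeq2. In all, 2 of the 4 other ligands followed were called for LPS in BMDMs in each genotype (40.4% and 38.9% of all genes), both higher. Their median log2 change was 1.90 in WT against -0.30 over all genes tested. For the knockout with LPS 1 of the 4 was called (2 by edgeR), beside 4.76% of all genes. In RAW264.7 cells 2 of the 4 ligands were tested, and Ccl24 alone was called for LPS (18.3% and 22.1% of all genes). The antisense gene Gm17268, which overlaps Ccl2, held 1 count in all BMDM libraries and 0 in RAW264.7 cells.

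**Figure D4:**
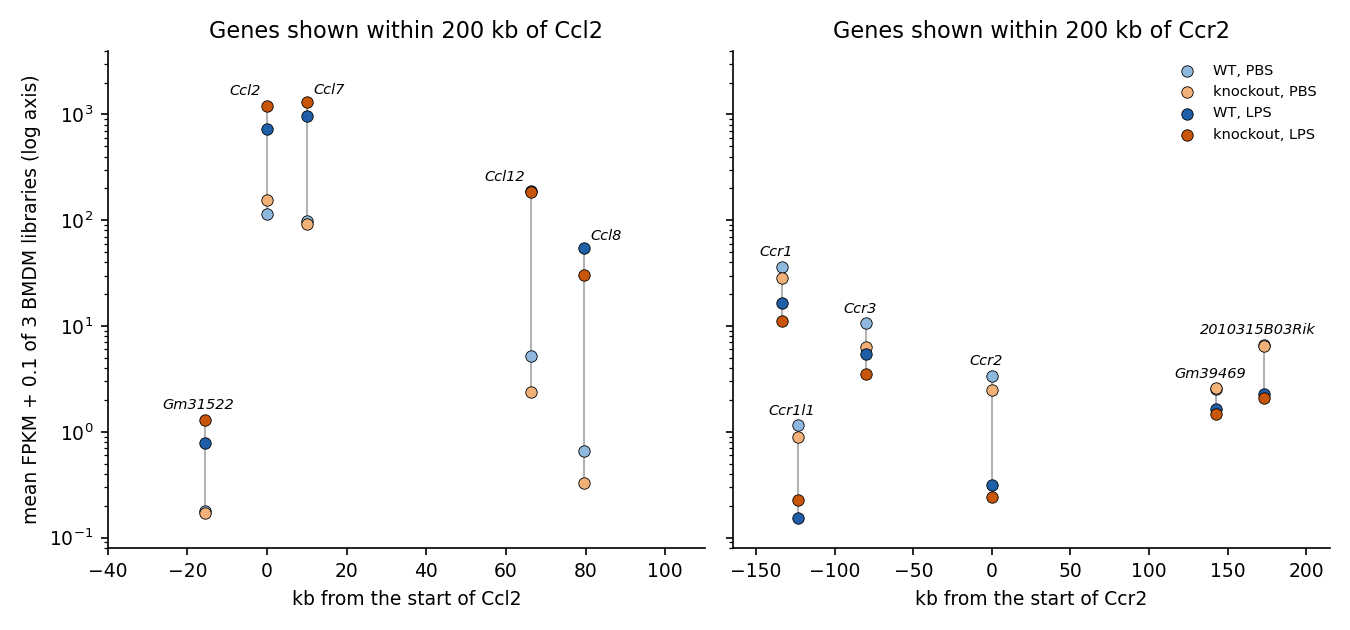
Mean FPKM + 0.1 on a log axis of the genes shown within 200 kb of Ccl2 and of Ccr2, which reached a mean of 1 FPKM in a BMDM group, by distance in kb from the start of Ccl2 or Ccr2. Ccl2, Ccl7, Ccl12 and Ccl8 all lie higher with LPS, and Ccr2, Ccr1 and Ccr3 lie lower.

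Around Ccr2 on chromosome 9 lie the receptor genes Ccr1 and Ccr3, whose products bind other inflammatory chemokines. Both fell with LPS in BMDMs, as Ccr2 did, though Ccr3 was not called in either genotype under median-ratio or quantile scaling, nor Ccr1 in WT under the former. Ccr3 was lower in the knockout than in WT under PBS and under LPS, with log2 differences of -0.74 ± 0.08 and -0.61 ± 0.08 (limma, adjusted p = 0.000578 and 0.000629). Ccr1 fell by 1.15 ± 0.06 with LPS in WT and fell by 1.35 ± 0.06 in the knockout (adjusted p = 5.51e-08 and 2.00e-08).

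Of the 6 other CC and CX3C receptors followed, 6 were called with LPS in each BMDM genotype, where 40.4% and 38.9% of all genes were called. The receptors were 2 higher and 4 lower, with medians of -1.06 in WT and -1.10 in the knockout against -0.30 and -0.28 over all genes tested. Ccrl2, an atypical receptor that holds chemerin at the cell surface, was among those higher, from 4.32 to 173 FPKM in WT. Cx3cr1, the fractalkine receptor of resident and non-classical cells, fell by 3.60 ± 0.16 in WT (adjusted p = 2.24e-08). In RAW264.7 cells 3 of 5 tested were called with LPS in each genotype, where 18.3% and 22.1% of all genes were called. The receptors called were 2 higher and 1 lower. Medians of the 5 were 0.59 in WT and 0.30 in the libraries labelled knockout. Ccr1, at 1.14 FPKM in WT with LPS, was at 0.12 in the libraries labelled knockout with LPS (-2.61 ± 0.30, adjusted p = 0.00033), the same direction as Ccl2. Of the 4 atypical receptors Ackr1 to Ackr4, 2 were tested in BMDMs and 1 in RAW264.7 cells. For these limma, edgeR and DESeq2 called 0 in every comparison, with 0 at an unadjusted p under 0.05. Depending on the comparison, limma called 1.82% to 40.4% of all genes in BMDMs and 1.95% to 22.1% in RAW264.7 cells. With so few receptors tested, the absence of calls says little.

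Of 11 transcription factors known to act at the Ccl2 promoter and enhancer, 11 were called with LPS in each BMDM genotype and 6 in each RAW264.7 genotype. Among all genes the shares called were 40.4% and 38.9% in BMDMs, WT first, and 18.3% and 22.1% in RAW264.7 cells. In WT BMDMs the factors were 7 higher and 4 lower, with a median log2 change of 1.11 against -0.30 over all genes tested. In the knockout the same counts were found with a median of 1.62 against -0.28. Among those higher was Nfkbiz, which encodes a nuclear IkB protein needed for secondary NF-kB targets and stood at 2.06 and 93.3 FPKM in WT with PBS and LPS. Fos, an AP-1 subunit, fell by 2.12 ± 0.07 in WT (adjusted p = 2.51e-09). Under median-ratio scaling 7 were called higher in each genotype, 1 lower in WT and 2 lower in the knockout.

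Between the BMDM genotypes limma, edgeR and DESeq2 each called 1 of the 11 with PBS and 1 with LPS. Among all genes limma called 1.82% and 4.76%. Of the 11, 6 with PBS and 10 with LPS had an unadjusted limma p under 0.05. The limma call with LPS was Jun, lower in the knockout at 13.04 FPKM against 20.1 (-0.62 ± 0.06, adjusted p = 0.00022, limma). With a pseudocount of 1 limma called 0 of the 11 with LPS. In RAW264.7 cells 3 of the 11 were called between genotypes with PBS and 5 with LPS, where 8.55% and 17.3% of all genes were called. The medians of the 11 were -0.01 and -0.16 against 0.02 and 0.00 over all genes. Jun, Fos and Cebpb were lower in the libraries labelled knockout under both treatments, with log2 differences of -2.38 ± 0.14, -1.89 ± 0.17 and -1.61 ± 0.18 with LPS (adjusted p = 6.38e-06, 7.75e-05 and 0.000323). Sp1 was higher with LPS, by 1.20 ± 0.24 (limma, adjusted p = 0.00739). Without replicate 1 of the libraries labelled knockout with PBS, 5 of the 11 were called with PBS, where 20.8% of all genes were called. LPS was called for 6 of the 11 in each RAW264.7 genotype, 5 higher and Jun lower, with medians of 0.29 in WT and 0.33 in the libraries labelled knockout against -0.05 and -0.07 over all genes.

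Proteins that bind chemokine mRNA and set its decay were followed as a list of 5. With LPS, 4 of 5 were called in each genotype of each cell type, Zc3h12a and Zfp36 higher and Zfp36l1 and Zfp36l2 lower. Medians of the 5 were -0.06 in both BMDM genotypes and 0.18 and 0.37 in RAW264.7 cells. LPS was called for 40.4% and 38.9% of all genes in BMDMs, WT first, and for 18.3% and 22.1% in RAW264.7 cells. Zc3h12a encodes the nuclease Regnase-1 and rose from 5.65 to 36.3 FPKM in WT BMDMs (2.67 ± 0.08, adjusted p = 1.34e-09). Zfp36l1, of the tristetraprolin family, fell from 68.3 to 0.813 FPKM there (-6.25 ± 0.17, adjusted p = 7.12e-10). limma called 0 of the 5 between genotypes, while edgeR and DESeq2 called Zfp36l1 for RAW264.7 cells with PBS, lower in the libraries labelled knockout (-0.59 each), as did limma after quantile normalization (-0.67). Among all genes limma called 1.82% with PBS and 4.76% with LPS in BMDMs, and 8.55% and 17.3% in RAW264.7 cells. Of the 5 factors, 0 with PBS and 4 with LPS had an unadjusted p under 0.05 in BMDMs, and 3 and 2 in RAW264.7 cells. The medians of the genotype differences with LPS were 0.11 in BMDMs and -0.15 in RAW264.7 cells against 0.04 and 0.00 over all genes. Zfp36 rose less with LPS in the RAW264.7 libraries labelled knockout (difference -0.61 ± 0.10, adjusted p = 0.011), a call lost under TPM, median-ratio and quantile scaling, with a pseudocount of 0.01, with DESeq2 and without replicate 3 of the libraries labelled knockout with PBS (-0.57).

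Downstream of CCR2, a list of 16 genes of Gi signalling, receptor desensitisation and the CCR2 adaptor Nup85 (FROUNT) was read. With LPS 12 were called in WT BMDMs (40.4% of all genes) and 13 in the knockout (38.9%), 4 of them higher in each. Their medians were -0.56 and -0.67 against -0.30 and -0.28 over all genes tested. Under median-ratio scaling 6 of 11 calls were higher in each and Gnai2 changed sign. Jak2, a kinase that CCR2 engages, rose from 10.95 to 197 FPKM in WT (4.15 ± 0.05, adjusted p = 9.19e-12). Arrb1, an arrestin that uncouples receptors, fell by 3.95 ± 0.13 in WT (adjusted p = 2.43e-09). For the BMDM knockout with PBS limma, edgeR and DESeq2 each called 0 of the 16, of which 5 had an unadjusted p under 0.05. With LPS limma called 2. Among all genes limma called 1.82% with PBS and 4.76% with LPS. Pik3cg, the lipid kinase driven by Gi-coupled receptors, held 4.47 FPKM in the knockout against 2.41 in WT (0.86 ± 0.05, adjusted p = 1.37e-05). Rgs1, which shortens Gi signals, held 42.1 FPKM against 72.8 (-0.79 ± 0.05, adjusted p = 1.65e-05). In RAW264.7 cells 6 of the 16 were called with LPS in WT (18.3% of all genes) and 9 in the libraries labelled knockout (22.1%). Their medians were -0.36 and -0.25. Between genotypes limma, edgeR and DESeq2 called 0 with PBS (8 at an unadjusted p under 0.05), and limma called 5 with LPS. Among all genes limma called 8.55% with PBS and 17.3% with LPS. The median of the 16 with LPS was -0.09, with Arrb2 at -1.06 ± 0.13 (limma, adjusted p = 0.000643). Without replicate 1 of the libraries labelled knockout with PBS, 3 of the 16 were called with PBS, where 20.8% of all genes were called. Of 4 proteases that trim CC chemokines, limma called Mmp14 with LPS in both BMDM genotypes (40.4% and 38.9% of all genes), at 5.57 and 80.5 FPKM in WT. Mmp2 was also called in WT by edgeR (1.61) and DESeq2 (1.66) and under median-ratio (0.97) and quantile scaling (1.07). Between BMDM genotypes limma, edgeR and DESeq2 called 0 of the 4 at either treatment (2 at an unadjusted p under 0.05 in each), but Mmp12 was called higher in the knockout with PBS after quantile normalization (0.59) and with LPS without replicate 3 of the knockout with LPS (0.59). In RAW264.7 cells 2 of 4 were called with LPS in each genotype (18.3% and 22.1% of all genes), both higher, and 1 by edgeR.

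Markers of other cell types were low in BMDMs beside the macrophage markers. The summed level of 7 classical monocyte markers was 5.16 to 5.6 FPKM in WT and 7.6 to 8.27 in the knockout with PBS, and 21.8 to 24.5 in WT and 11.9 to 12.2 in the knockout with LPS, with Ly6c1 at 0. Vcan, which activated macrophages also make, stood at 17.2 FPKM in WT and 5.74 in the knockout with LPS. Neutrophil and precursor markers summed to 5.57 to 8.64 FPKM over all BMDM libraries with Ly6g at 0, lymphocyte markers to 3.34 to 8.66, fibroblast and endothelial markers to 1.31 to 2.05, and dendritic cell markers to 0.25 to 0.51. In RAW264.7 cells the dendritic cell markers summed to 8.77 to 10.2 FPKM in the libraries labelled knockout with PBS and to 1.14 to 1.36 in WT, and with LPS to 2.75 to 2.93 and 0.68 to 0.8, led by Siglech, while the other non-macrophage lists stayed at or below 0.73. The part of these markers, and of the macrophage markers given above, in the values of the 4 genes was not tested.

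The genes most like each of the 4 in pattern were taken by the lower of the Pearson correlations over 12 RAW264.7 and 12 BMDM libraries, or by the BMDM correlation alone where the gene averaged under 1 FPKM in RAW264.7 cells. Libraries of a group share their treatment, and the values are a description. For Ccl2 these were Cdc42ep2, Cd82 and P4ha1, with 0.980, 0.978 and 0.976 among 9470 genes. Cdc42ep2, an effector of the GTPase Cdc42, was lower in the RAW264.7 libraries labelled knockout with LPS (1.93 against 8.29 FPKM) and higher in the BMDM knockout with LPS (11.7 against 7.53), as Ccl2 was. For Ccl7 they were Mlkl, Odc1 and Stard3, with 0.949, 0.948 and 0.944. For Ccl12, over BMDMs alone and 10469 genes, they were Daxx, Ifih1 and Psme2b, each above 0.998. Ifih1, a sensor of double-stranded RNA, held 8.87 FPKM in WT and 4.29 in the knockout with PBS and 203 and 184 with LPS. Reads of Psme2b may be shared with its close copy Psme2, and its values are uncertain. For Ccr2 they were Ints6, Abcd2 and Atp6v1a, each at 0.996, and Abcd2, a peroxisomal transporter, fell from 7.90 to 0.260 FPKM with LPS in WT.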

How the data were processed

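Total RNA (1 ug per the labels) was taken with Trizol, and poly(A) libraries were read from both ends over 150 bases. For either cell type the authors deposited a table of raw counts and FPKM for 56691 genes. The deposited FPKM could be rebuilt from counts, exonic length and library total to within 1% (99.9% of RAW264.7 values and 99.5% of BMDM values above 50 counts). The submitters' processing notes name mm10, but positions in the tables are not those of GRCm38, and sequences were matched by gene. Aligner, counting program and strand setting: not given in the sources used here.

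As in the study's methods, limma was used (3.58.1, R 4.3.3), here on 4 group means of log2(FPKM + 0.1) over 12 libraries, for genes above 0 FPKM in at least 1 library. Calls required an adjusted p below 0.05 together with a fold of 1.5 or more. Folds of low genes are understated on this scale, so ratios of pooled counts with exact 95% intervals, which cover counting error only, are given beside them. Alternatives were edgeR 4.0.16 (quasi-likelihood) and DESeq2 1.42.0 on the counts, pseudocounts of 0.01 and 1, a minimum of 1 FPKM in 3 libraries, scaling by TPM, median ratio or quantiles, a trend of variance with intensity, fits of 2 groups, a replicate block and each library left out. The fits were tested on simulated data of genes with ample counts and without an outlying library. This does not cover the low counts of the ligands in RAW264.7 cells with PBS. Python 3.11.15 and scipy 1.17.1 made the remaining values. Correlated genes were ranked by Pearson's r. The 4 genes, the marker, pathway and regulator lists and the naming rule (at most 4 called genes per list and comparison, a group mean of at least 1 FPKM) were chosen with earlier results of these data known; neighbours were taken by position, within 200 kb. Protein sequences were not used here. Some genes of the lists are not reported here by name.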

Additional observations from a re-analysis of the deposited data

Results flagged for a closer look

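Tests of whether the knockout effect differed between treatments singled out 3 results. In BMDMs the difference for Ccl12 was 1.07 on the log2 scale, with an effect of -1.10 under PBS and of -0.02 under LPS. For RAW264.7 cells, the differences were -5.22 for Ccl7, whose WT libraries with LPS held 331 counts against 5 in the libraries labelled knockout, and -2.09 for Ccl2. Only 1 count of Ccl2 and 0 counts of Ccl7 were present in the libraries labelled knockout with PBS, so that these RAW264.7 values depend on the value added before taking logs.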

How the results depend on the processing

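Of 181 values of Ccl12 under alternatives, 162 kept their direction and their side of the threshold, as did 221 of 238 for Ccl2, 226 of 238 for Ccl7 and 206 of 233 for Ccr2. The responses of all 4 genes to LPS in BMDMs were among these under every alternative run, as were the RAW264.7 genotype differences of Ccl2 with PBS and LPS. DESeq2 gave no adjusted p for Ccl12 in RAW264.7 cells. The cause of the changes below was not tested.

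In BMDMs the difference between the knockout effects on Ccl12 was 0.95 with median-ratio scaling, 1.11 with a pseudocount of 0.01 and 1.07 with the replicate block (limma, adjusted p = 0.0658, 0.0525 and 0.063), none of them called, and 0.87 to 1.26 with single libraries left out. Its effect with LPS was 0.0645 after quantile normalization and -0.0607 to 0.04996 with libraries left out, and its effect with PBS was -1.10 and not called with the 2 groups alone. The Ccl2 effect with LPS was 0.58 with DESeq2 and 0.58 with median-ratio scaling, under the fold required. The Ccl7 effect with LPS (0.66) and the difference of its effects (0.74) were called after quantile normalization, and the latter was 0.47 to 0.61 with libraries left out. For Ccr2 the difference was -0.21 with DESeq2, -0.19 with edgeR with and without its filter (-0.193 and -0.190), -0.0456 with median-ratio scaling, -0.13 with a pseudocount of 0.01 and -0.11 to 0.20 with libraries left out, and its effect with LPS was called by DESeq2 (-0.73) and by edgeR with (-0.71) and without (-0.70) a filter.

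In RAW264.7 cells the difference between the genotype effects on Ccl2 was 0.40 with DESeq2, 0.32 with a pseudocount of 0.01, -1.96 with TPM scaling, -0.0366 and -0.0502 with edgeR with and without a filter, -2.09 with the replicate block (limma, adjusted p = 0.082) and -2.43 to -1.85 with libraries left out, and the call was lost without 9 of 12 libraries. For Ccl7 it was -4.75 with DESeq2, -4.01 and -4.03 with edgeR and -5.88 with a pseudocount of 0.01, none called, while the LPS response of Ccl7 in the libraries labelled knockout was called by DESeq2 (3.78) and edgeR (4.12 and 4.10) and was 0.54 to 1.67 with libraries left out, called without replicate 3 of the LPS group. For Ccl12 it was called with a pseudocount of 0.01 (-5.44) and was -3.03 to -1.81 with libraries left out, called without WT LPS replicate 1 or 2. For Ccr2 it was called by DESeq2 (-1.54), by edgeR without a filter (-1.56) and after quantile normalization (-1.30), and was -1.42 to -1.03 with libraries left out. The Ccr2 response in WT was not called with an intensity trend (0.90) or a pseudocount of 1 (0.34) and was 0.73 to 1.09 with libraries left out. Its genotype difference with LPS was not called with TPM scaling (-0.67), the trend (-0.86) or a pseudocount of 1 (-0.33) and was -1.05 to -0.69 with libraries left out.

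With a pseudocount of 1 the genes called fell to 402 of 789 for the difference of effects, 439 of 1285 with LPS and 256 of 490 with PBS in BMDMs, and to 3054 of 4635 with LPS and 1474 of 2287 with PBS in RAW264.7 cells, as counts and not as shared genes. The RAW264.7 count with PBS was 997 with the 2 groups alone and 1288 to 5523 with libraries left out, the highest without replicate 1 of the libraries labelled knockout, and that of the difference of effects was 400 to 904 (521 with all), again highest without it. Deviations of samples with the same replicate number were at most weakly correlated (r from -0.058 to 0.084), which does not settle whether equal numbers were paired. The replicate block changed no other call of the 4 genes. In RAW264.7 cells the pooled counts of Ccl7 and Ccl12 were 5 or fewer outside WT with LPS, which limits what the data can show of them there.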
